A study of Mus musculus with 6 samples.

Results

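The data described here are the transcript levels of 10 genes of the circadian clock in neural stem cells, quiescent or activated. The cells were sorted out of the mouse ventricular-subventricular zone, a layer along the lateral ventricles of the brain where neurons are still made. The genes are Arntl, which encodes BMAL1, and Clock, Per1, Per2, Per3, Cry1, Cry2, Nr1d1, Nr1d2 and Dbp. They were chosen by name, and their probe sets are those that the platform annotation pairs with exactly 1 gene. All 10 were found, with 23 probe sets between them, among 18193 genes and 45037 probe sets in all. Activated cells carried a GFP reporter under the GFAP promoter, CD133 and the EGF receptor, and lacked CD24. Quiescent cells carried the same reporter and CD133 and lacked CD24, and the label of this sort names no EGF receptor gate. Both groups came from adult mouse brains with the same transgene, and the cells in which the GFAP promoter is active limit both sorts alike. Each group was measured on 3 one-colour arrays that the labels call biological replicates, and that number limits the precision of every value. Age in weeks, sex, the number of animals behind an array and the time of day of collection are not stated in the labels.

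The mammalian clock is a loop of transcription and feedback that runs in most cells. BMAL1 and CLOCK bind E-box elements as a pair and switch on the Per, Cry, Nr1d and Dbp genes. The PER and CRY proteins then accumulate and inhibit that pair, and the REV-ERB receptors encoded by Nr1d1 and Nr1d2 repress Arntl through ROR elements. DBP activates genes that carry a D-box, and NFIL3 represses through the same element. In the adult brain the master oscillator lies in the suprachiasmatic nucleus, and glial and stem cells hold clocks of their own.

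Promoter sequences are shown for 5 of the genes whose windows held matches to elements of the kinds named above. They come from RefSeq on build GRCm38.p6 and run 5′ to 3′ on the strand of the gene, from 250 bases before an annotated start to 50 after it. Capitals mark the matches to the motifs searched on both strands, namely the E-box CACGTG, its variant CACGTT, the D-boxes TTATGTAA and TTACGTAA, the ROR element core AGGTCA and the CRE TGACGTCA. The Per3 window is chr4:151044616-151044915 on the minus strand, the Cry1 window chr10:85185005-85185304 on the minus strand, the Per1 window chr11:69098699-69098998 on the plus strand and the Arntl window chr7:113207261-113207560 on the plus strand. Ciart, a further repressor of the pair, lies at chr3:95882179-95882478 on the minus strand.
Per3: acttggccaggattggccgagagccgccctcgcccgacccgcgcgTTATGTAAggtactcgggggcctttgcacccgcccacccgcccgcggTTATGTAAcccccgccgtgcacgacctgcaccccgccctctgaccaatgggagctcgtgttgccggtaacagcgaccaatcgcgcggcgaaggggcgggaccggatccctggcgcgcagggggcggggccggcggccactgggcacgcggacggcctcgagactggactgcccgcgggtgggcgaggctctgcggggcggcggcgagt
Cry1: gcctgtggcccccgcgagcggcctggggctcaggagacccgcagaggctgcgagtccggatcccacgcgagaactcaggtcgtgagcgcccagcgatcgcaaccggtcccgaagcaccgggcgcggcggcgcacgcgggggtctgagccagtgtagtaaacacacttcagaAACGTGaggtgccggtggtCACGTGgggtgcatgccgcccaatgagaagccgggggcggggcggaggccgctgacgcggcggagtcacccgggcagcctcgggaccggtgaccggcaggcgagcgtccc
Per1: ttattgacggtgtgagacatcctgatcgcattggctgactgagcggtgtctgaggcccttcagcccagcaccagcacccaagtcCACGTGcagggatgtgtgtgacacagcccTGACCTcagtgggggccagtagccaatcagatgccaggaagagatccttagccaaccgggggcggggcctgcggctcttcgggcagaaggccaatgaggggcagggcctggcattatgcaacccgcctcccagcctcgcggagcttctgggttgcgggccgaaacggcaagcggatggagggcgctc
Arntl: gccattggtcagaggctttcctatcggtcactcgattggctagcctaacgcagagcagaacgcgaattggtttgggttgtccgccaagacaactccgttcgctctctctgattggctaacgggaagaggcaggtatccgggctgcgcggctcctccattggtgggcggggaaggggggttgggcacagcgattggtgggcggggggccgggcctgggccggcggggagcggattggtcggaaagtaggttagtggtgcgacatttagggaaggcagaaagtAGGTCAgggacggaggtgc
Ciart: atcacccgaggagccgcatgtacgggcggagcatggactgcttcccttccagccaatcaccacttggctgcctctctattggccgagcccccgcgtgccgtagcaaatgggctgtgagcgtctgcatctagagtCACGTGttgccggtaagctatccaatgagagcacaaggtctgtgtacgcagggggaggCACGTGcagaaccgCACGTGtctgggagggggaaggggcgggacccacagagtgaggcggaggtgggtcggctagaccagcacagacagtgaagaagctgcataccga
The Per3 window held 2 D-boxes, the Cry1 window an E-box and its variant and the Ciart window 3 E-boxes. The Per1 window shown held an E-box and a ROR core, and the Arntl window shown a ROR core. Only windows with a match are shown. Per1 and Arntl each had another window, which held no match, and the Dbp window held none either. Of the 10 genes, 9, all but Per2, had at least 1 window in the table, and among these an E-box was found in 2 genes, its variant in 3, a D-box in 1, a ROR core in 4 and a CRE in 0. Of all 27025 genes with a window of this length, 8.09% held the E-box in at least 1 window, 5.44% its variant, 1.23% a D-box, 18.1% the ROR core and 2.03% the CRE. Over the 32851 windows themselves the shares were 7.15%, 4.68%, 1.06%, 16.3% and 1.79% in the same order. No matches overlapped in the windows of the clock genes. A match is a description of the letters in a short window and does not show binding.

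In activated cells 6 of the 10 genes were lower, namely Per1, Per3, Cry2, Nr1d1, Nr1d2 and Dbp, and 0 were higher at an adjusted p under 0.05 in limma, while Per2, Cry1, Arntl and Clock did not pass. Over all 11575 genes bright enough to be tested, 34.9% passed, 17.6% as lower and 17.3% as higher. The median difference of the 10 genes was -1.74, against 0.01 over all genes tested. Activated and quiescent arrays did not overlap for 8 of the 10, against 50.7% of all genes. Differences are activated minus quiescent in log2 MAS5 signal, the intensity summary of the array, given ± SE of the fit (n = 3 arrays per group) with the adjusted p over all genes tested by limma and the Benjamini-Hochberg method. RNA was taken from sorted populations, so fewer cells with a transcript and less of it per cell cannot be told apart.

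**Figure D1:**
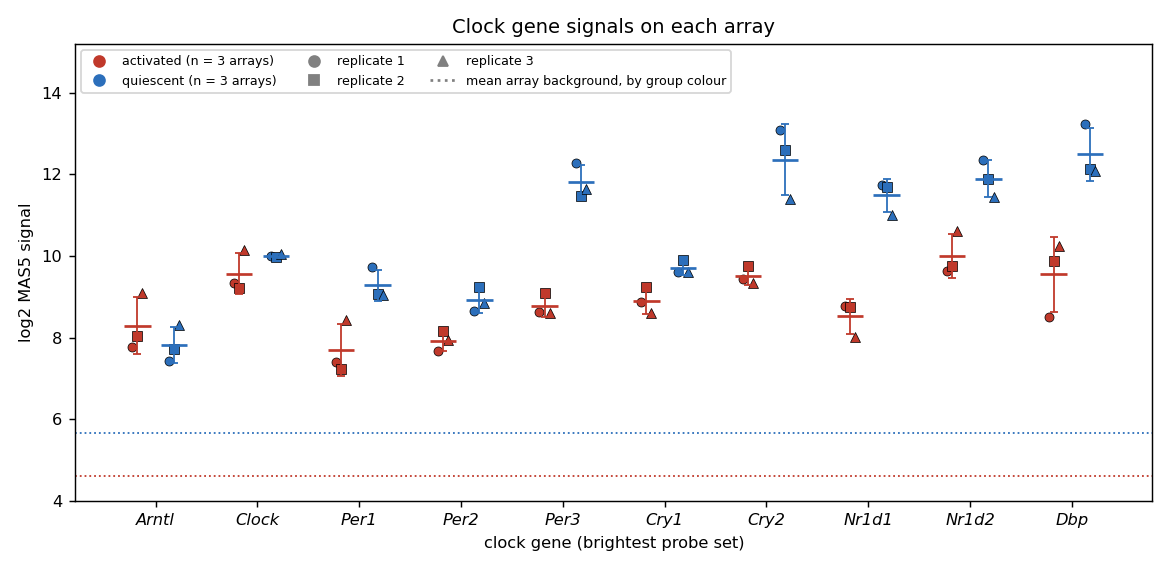
Log2 MAS5 signal of the brightest probe set of each clock gene (vertical axis) by gene (horizontal axis), with 1 point per array, the activated group left of the quiescent group, and the group mean ± SD as bars. The activated arrays lie below the quiescent ones for every gene but Arntl and Clock, whose groups overlap, and all points are above the mean background of both groups (dotted lines).

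**Figure D2:**
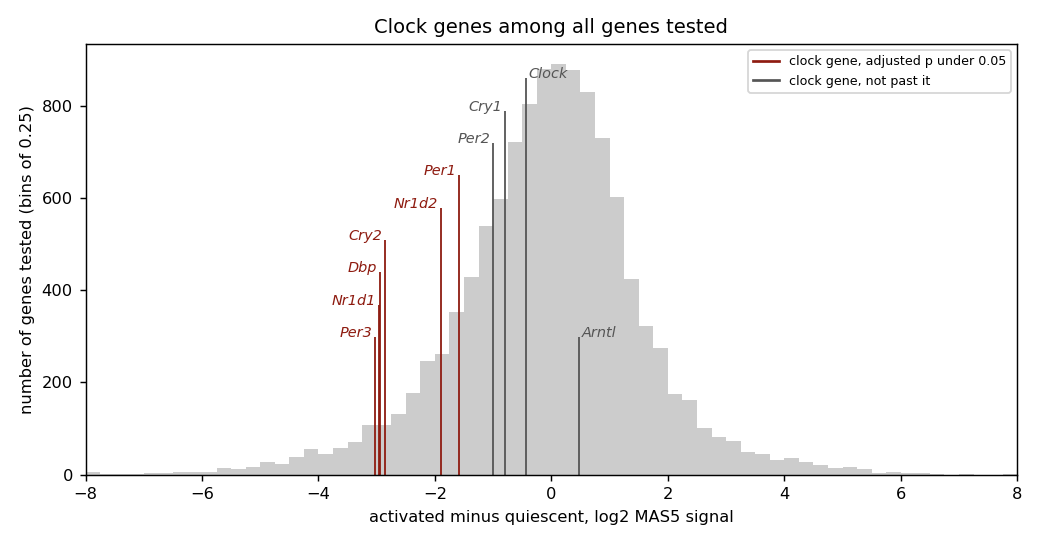
Number of genes tested (vertical axis) by activated minus quiescent difference in log2 MAS5 signal (horizontal axis), with a line for each clock gene whose height has no meaning. Per3, Nr1d1, Dbp and Cry2 stand together between -3.02 and -2.86, in the lower tail, and Arntl and Clock near the middle.

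The activators come first. Arntl encodes the partner of CLOCK and the component without which the loop stops. On its brightest probe set it read 7.76, 8.03 and 9.08 on the activated arrays, against 7.44, 7.73 and 8.31 on the quiescent arrays. The groups overlapped, and the difference of 0.47 ± 0.51 did not pass (adjusted p = 0.496, 95% interval -0.65 to 1.59). Its other probe set read 7.09, 5.68 and 6.01 on activated arrays and 7.36, 8.29 and 8.12 on quiescent arrays, without overlap. That difference of -1.66 ± 0.61 did not pass in the fit over every probe set (adjusted p = 0.0779), and the 2 probe sets point opposite ways. No direction can therefore be given for Arntl, whose window above holds a ROR core.

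Clock encodes the other partner, a histone acetyltransferase of the same protein family as BMAL1. It read 9.34, 9.23 and 10.14 on activated arrays, against 9.99, 9.97 and 10.05 on quiescent arrays. One activated array lay above the quiescent arrays and the others below them, and the difference was -0.44 ± 0.34 (adjusted p = 0.341, 95% interval -1.20 to 0.32). None of its 4 probe sets passed, with differences of -0.62 to 0.35. The interval does not exclude a change of the size seen for Per2.

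The Per genes encode the PERIOD proteins, which carry the inhibitory complex into the nucleus and set its timing. Per3 read 8.64, 9.10 and 8.60 on activated arrays and 12.28, 11.48 and 11.65 on quiescent arrays. These groups lay far apart, and Per3 was 8.14-fold lower in activated cells, a difference of -3.02 ± 0.33 (adjusted p = 0.000115). All 6 of its probe sets passed as lower, with differences of -4.08 to -1.62. The promoter of Per3 shown above is the one with D-boxes.

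Per1 is an early responder to cyclic AMP and glucocorticoid signals as well as a clock gene. It read 7.41, 7.24 and 8.43 on activated arrays, against 9.72, 9.07 and 9.04 on quiescent arrays. The groups did not overlap, although activated array 3 came close to the lower quiescent arrays. The difference was -1.59 ± 0.46 (adjusted p = 0.0223). Leaving out activated array 1 (adjusted p = 0.0742), activated array 2 (adjusted p = 0.0814) or quiescent array 1 (adjusted p = 0.0661) ended the call, as did scaling on the hybridisation controls (adjusted p = 0.183) and median centring (adjusted p = 0.113). Of the immediate early genes, which share signals with Per1, 5 of 7 tested were higher in activated cells and 0 lower. The shares over all genes were 17.3% and 17.6%. Fos, for example, was 4.58 ± 0.57 higher (adjusted p = 0.000236), while Nr4a1 (adjusted p = 0.0821) and Atf3 (adjusted p = 0.603) did not pass. A link between these genes and the difference of Per1 was not tested.

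Per2 read 7.66, 8.16 and 7.94 on activated arrays, against 8.65, 9.24 and 8.86 on quiescent arrays. The groups did not overlap, but the difference of -0.996 ± 0.41 did not pass (adjusted p = 0.082, 95% interval -1.90 to -0.09). Its dimmer probe sets differed by -1.98 ± 0.49 (adjusted p = 0.0147) and -2.62 ± 0.62 (adjusted p = 0.0111) in the fit over every probe set. With the mean of its 3 probe sets Per2 passed as lower (difference -1.87 ± 0.38, adjusted p = 0.0043).

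The cryptochromes are the main inhibitors of the activator pair. Cry2 read 9.44, 9.75 and 9.33 on activated arrays, against 13.09, 12.60 and 11.41 on quiescent arrays. The activated arrays were close together and the quiescent arrays were spread more widely, all of them higher. Cry2 was 7.24-fold lower in activated cells (difference -2.86 ± 0.40, adjusted p = 0.000491). Cry1 read 8.88, 9.23 and 8.60 on activated arrays, against 9.61, 9.90 and 9.60 on quiescent arrays. Its groups did not overlap either, and its difference of -0.79 ± 0.35 did not pass (adjusted p = 0.0983, 95% interval -1.56 to -0.03).

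Nr1d1 and Nr1d2 encode REV-ERB alpha and beta, heme-binding nuclear receptors that repress transcription. Nr1d1 read 8.78, 8.75 and 8.03 on activated arrays, against 11.75, 11.70 and 11.01 on quiescent arrays. The groups were well separated, and the gene was 7.82-fold lower in activated cells (difference -2.97 ± 0.35, adjusted p = 0.000201). Nr1d2 read 9.64, 9.76 and 10.62 on activated arrays, against 12.36, 11.89 and 11.44 on quiescent arrays. It was 3.71-fold lower, with no overlap (difference -1.89 ± 0.35, adjusted p = 0.00242), and both of its probe sets passed. Nr1d1 overlaps Thra, a thyroid hormone receptor gene on the opposite strand, and Thra itself differed by -0.12 ± 0.40 (adjusted p = 0.830).

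Dbp encodes a PAR bZIP factor that carries the clock's rhythm to D-box genes. It read 8.51, 9.89 and 10.25 on activated arrays, against 13.25, 12.15 and 12.09 on quiescent arrays. The groups did not overlap, and Dbp was 7.69-fold lower in activated cells (difference -2.94 ± 0.47, adjusted p = 0.000983). Its second probe set differed by -3.93 ± 0.48 (adjusted p = 0.000225). Activated array 1 was the lowest and quiescent array 1 the highest of all on both probe sets.

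Over the 23 probe sets of the 10 genes, fitted together with every other probe set and with no brightness filter, 15 passed as lower, 0 as higher and 8 did not pass. Of all probe sets 11.8% passed as lower and 8.26% as higher. The 8 that did not pass were the 4 of Clock, the 2 of Arntl, 1 of Per2 and the single one of Cry1. Of these only 1 Arntl and 1 Clock probe set had a difference above 0.

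**Figure D3:**
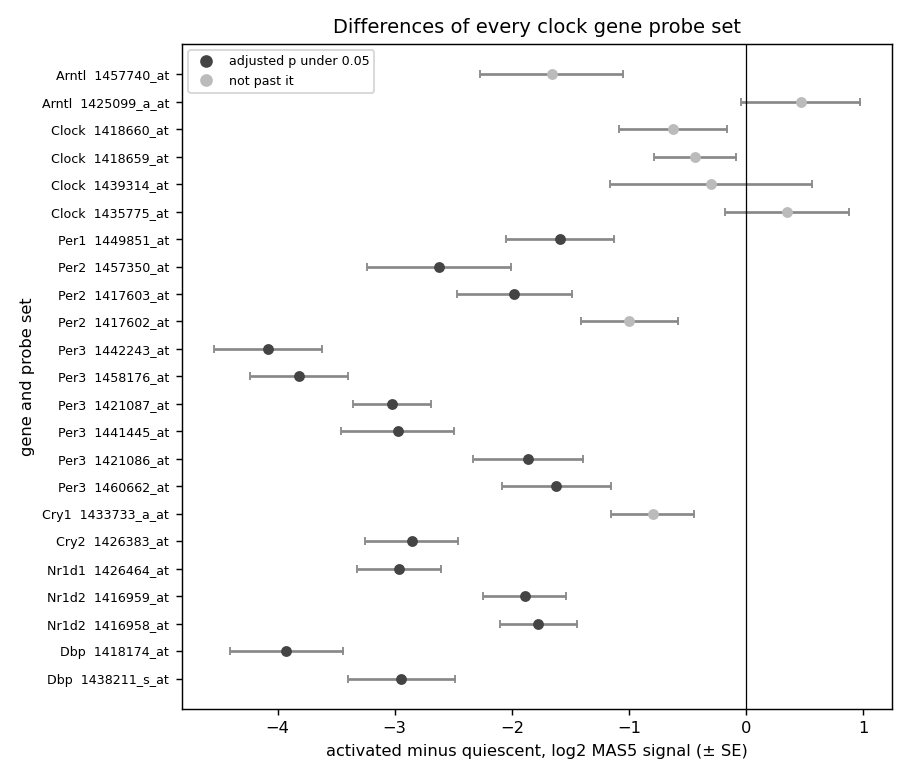
Activated minus quiescent difference in log2 MAS5 signal (horizontal axis, bars ± SE) for each of the 23 probe sets of the clock genes (vertical axis), in dark grey where the adjusted p was under 0.05. The 6 Per3 probe sets span -4.08 to -1.62, and the 2 Arntl probe sets fall on opposite sides of 0.

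Relatives within a family were compared through the difference between their differences, in 6 pairs chosen after the values were seen. The log2 ratio of Cry2 to Cry1 differed by -2.06 ± 0.49 between activated and quiescent arrays, and the groups did not overlap in it. A two-sided exact permutation test gave p = 0.1, which no 3 arrays against 3 can go below, and 0.12 after Benjamini-Hochberg adjustment over the 6 pairs. The same p-values held for Per3 against Per2 (-2.03 ± 0.42), Per3 against Per1 (-1.44 ± 0.50), Nr1d1 against Nr1d2 (-1.08 ± 0.57) and Arntl against Clock (0.90 ± 0.28). Per2 against Per1 differed by 0.59 ± 0.55, with overlap (exact permutation p = 0.4, adjusted p = 0.4). None of these can pass this permutation test with 3 arrays against 3. Each gene was taken on its brightest probe set. The dimmer Per2 probe sets differed by -1.98 and -2.62, inside the span of the Per3 probe sets (-4.08 to -1.62). The other Arntl probe set differed by -1.66. The Per3 probe sets with the smallest differences, -1.62 and -1.86, were near the -1.59 of the single Per1 probe set. Per3 against Per1 therefore depends on the Per3 probe set taken. Per3 against Per2 and Arntl against Clock are likewise results of the brightest probe sets only.

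Within the groups, the spread of the clock genes resembled that of other genes, with a median SD of 0.46 for the 10 against 0.50 for all genes tested. In each group array 3 had the lowest Nr1d1, at 8.03 among activated and 11.01 among quiescent arrays. It also had the highest Arntl on the brightest probe set, at 9.08 and 8.31. On the other Arntl probe set the highest were activated array 1 (7.09) and quiescent array 2 (8.29). The pattern of array 3 was picked out after the values were seen and was not tested. By the likeness of the profile over the 6 arrays, the genes nearest to Per3, which had the largest called difference, were Aldoa, Gja1 and Slc8b1, with Pearson r of 0.997, 0.997 and 0.996. Such values are the highest among all genes tested and include the split between groups.

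Further clock genes were 24 genes in 8 roles, of which 21 passed the brightness filter. Of these 21, 8 were lower in activated cells, 6 were higher and 7 failed the test. Their median difference was -0.13. Against the 17.6% and 17.3% over all genes, the list held calls of both directions. Without activated array 3 the count of higher genes was 3. Scaling on the hybridisation controls turned the split to 8 higher and 3 lower, and median centring to 9 higher and 5 lower. Arntl2, Bhlhe41 and Fbxl21 were under the brightness filter.

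Of the relatives of the activators 1 was tested. Npas2 encodes a substitute for CLOCK that is prominent in forebrain. It read 1.76, 6.58 and 5.47 on activated arrays, against 9.44, 9.46 and 10.15 on quiescent arrays. Activated array 1 was below background, so the fold is a bound, at least 17.3-fold lower in activated cells on this probe set (adjusted p = 0.00388). Its other probe set was at least 4.82-fold lower, with 1 activated array at or below background (adjusted p = 0.0382 in the fit over every probe set). For the untested Arntl2, a relative of Arntl, 2 activated arrays and 1 quiescent array were at or below background.

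The ROR receptors activate through the element that REV-ERB proteins repress. Rorb read 9.38, 9.37 and 9.96 on activated arrays and 11.05, 11.60 and 11.67 on quiescent arrays (difference -1.87 ± 0.31, adjusted p = 0.00131), and it did not pass with arrays scaled on the hybridisation controls (adjusted p = 0.067). Rora gave no call on its brightest probe set, which read 7.03, 7.60 and 11.84 on activated arrays and 9.58, 9.90 and 10.02 on quiescent arrays (adjusted p = 0.449). Activated array 3 alone was high there. Of its 9 probe sets 7 passed as lower, and 3 of these had 1 activated array at or below background, so that they were at least 11.7-fold to at least 16.5-fold lower. The other 4 differed by -3.87 to -2.88. Without activated array 3 the brightest probe set passed too (adjusted p = 0.00435).

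Among the D-box factors, Hlf and Tef, the other PAR bZIP activators, were lower with Dbp, and Nfil3, their repressor, was higher. Hlf read 7.995, 9.004 and 8.71 on activated arrays, against 10.94, 10.65 and 10.34 on quiescent arrays, a difference of -2.07 ± 0.37 (adjusted p = 0.00191). Tef differed by -1.33 ± 0.29 (adjusted p = 0.0058), but did not pass with scaling on the hybridisation controls (adjusted p = 0.168) or median centring (adjusted p = 0.122). In the fit over every probe set, 2 of the 3 Tef probe sets passed as lower. The other overlapped between groups and did not pass (-0.11 ± 0.50, adjusted p = 0.902). Nfil3 read 8.78, 8.76 and 9.16 on activated arrays, against 3.09, 3.60 and 7.90 on quiescent arrays. Quiescent arrays 1 and 2 were below background, so Nfil3 was at least 5.33-fold higher in activated cells (adjusted p = 0.0148). Leaving out activated array 3 (adjusted p = 0.0547), quiescent array 1 (adjusted p = 0.0505) or quiescent array 2 (adjusted p = 0.0585) ended that call.

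All 3 tested E-box repressors of the list were lower as well. Bhlhe40 encodes DEC1, which competes for E-boxes. It read 8.001, 7.79 and 9.01 on activated arrays, against 12.06, 11.70 and 11.55 on quiescent arrays, and was 11.3-fold lower (difference -3.50 ± 0.38, adjusted p = 0.000117). Cipc, which binds CLOCK, differed by -1.22 ± 0.26 (adjusted p = 0.00458), and missed the threshold with scaling on the hybridisation controls (adjusted p = 0.261) or median centring (adjusted p = 0.128). Ciart, whose window holds 3 E-boxes, differed by -1.38 ± 0.44 (adjusted p = 0.034), but 8 of 20 alternatives lost its call. These included leaving out any activated array (adjusted p = 0.0669 to 0.0933) or quiescent array 1 (adjusted p = 0.09). Bhlhe41, the relative of Bhlhe40 that encodes DEC2, was too dim on its brighter probe set to be tested, and its other probe set was at least 3.38-fold lower in activated cells, with 2 activated arrays at or below background (adjusted p = 0.0341 in the fit over every probe set).

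Among enzymes that tune clock proteins, 2 of 4 kinases were higher and 1 of 3 tested genes of the ubiquitin system was lower. Over all genes 17.3% were higher and 17.6% lower. Csnk1d and Csnk1e encode the casein kinases that mark PER for breakdown. Csnk1d was 0.89 ± 0.24 higher in activated cells (adjusted p = 0.0151), a call lost in 7 of 20 alternatives. Among these were leaving out cross-hybridising probe sets (adjusted p = 0.914) and leaving out any activated array or quiescent array 2 (adjusted p = 0.0501 to 0.0627). Csnk2a1, a subunit of casein kinase 2, was 0.92 ± 0.31 higher (adjusted p = 0.0383), a call lost in 10 of 20. These included the fits without any 1 array other than quiescent array 1 (adjusted p = 0.0537 to 0.112). In the fit over every probe set, 1 of 5 Csnk1d and 1 of 6 Csnk2a1 probe sets passed, both as higher. Csnk1e (0.89 ± 0.39, adjusted p = 0.0972) and Gsk3b (0.55 ± 0.23, adjusted p = 0.089), a kinase that stabilises REV-ERB alpha, did not pass. Both passed as higher with scaling on the hybridisation controls (adjusted p = 0.0219 for Csnk1e and 0.0132 for Gsk3b) and with median centring (0.0245 and 0.0202). With the mean of its 3 probe sets Csnk1e passed as well, with a difference of 1.90 ± 0.40 (adjusted p = 0.00476), and 1 of those probe sets was 7.53-fold higher (adjusted p = 0.00127 in the fit over every probe set). Of the 6 Gsk3b probe sets 2 passed as higher in the fit over every probe set, and 4 did not pass. Usp2, a deubiquitinase under clock control, read 6.91, 8.43 and 7.74 on activated arrays, against 9.65, 9.69 and 10.34 on quiescent arrays (difference -2.20 ± 0.47, adjusted p = 0.00494). With arrays scaled on the hybridisation controls it did not pass (adjusted p = 0.0572). The ubiquitin ligase genes Btrc (-0.13 ± 0.35, adjusted p = 0.788) and Fbxw11 (-0.46 ± 0.26, adjusted p = 0.187) did not pass.

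Timeless and Tipin, which in mammals act together at replication forks, were higher, and so was Wee1, a kinase that holds cells before mitosis. Timeless read 11.60, 11.53 and 11.80 on activated arrays, against 8.03, 8.40 and 7.36 on quiescent arrays, and was 13.1-fold higher (difference 3.71 ± 0.35, adjusted p = 6.53e-05). Tipin was 2.34 ± 0.35 higher (adjusted p = 0.000689). Wee1 read 10.85, 11.12 and 10.73 on activated arrays, against 6.67, 8.82 and 7.24 on quiescent arrays, and was 10.01-fold higher (difference 3.32 ± 0.52, adjusted p = 0.000844). The 5 tested proliferation markers were all higher in activated cells too. Nampt, an enzyme of NAD synthesis (0.54 ± 0.33, adjusted p = 0.228), did not pass as deposited, though it did with median centring (adjusted p = 0.0482). Cdkn1a, a CDK inhibitor, did not pass either (difference 1.17 ± 0.92, adjusted p = 0.341), and its groups overlapped. Quiescent array 2 read 10.49, above all activated arrays (8.97 to 9.25), while quiescent array 1 was below background. No fold is therefore given for Cdkn1a. Cdkn1a passed as higher without quiescent array 2 (adjusted p = 0.0163).

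**Figure D4:**
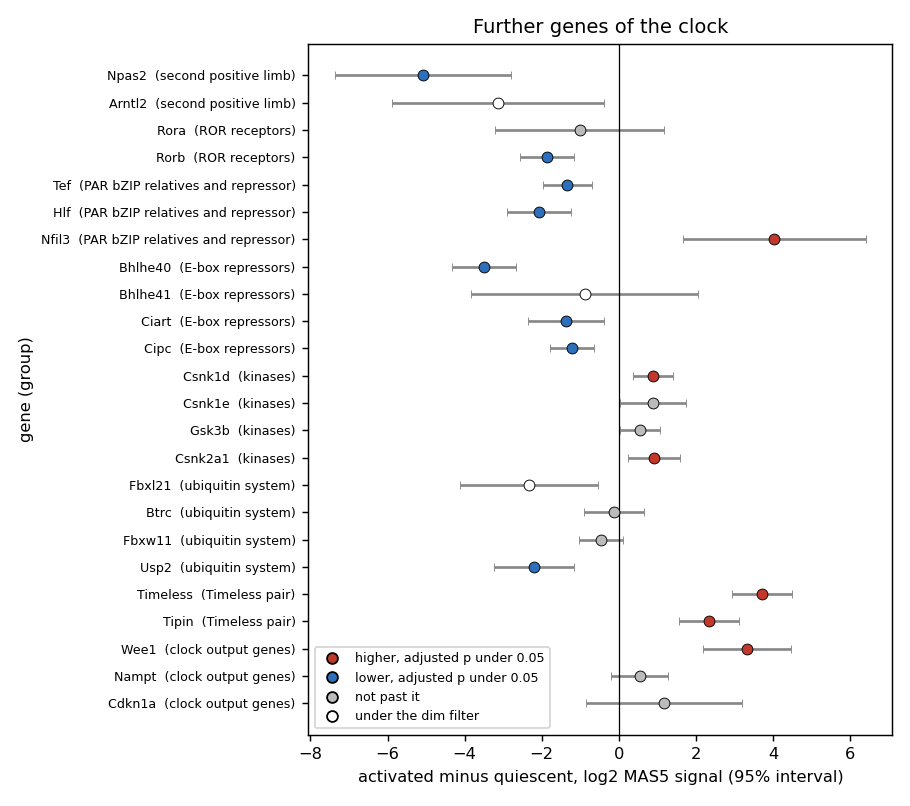
Activated minus quiescent difference in log2 MAS5 signal (horizontal axis) with its 95% interval for 24 further clock genes (vertical axis, role in brackets), red where higher and blue where lower at an adjusted p under 0.05, grey where it did not pass and white where under the brightness filter. Timeless, Tipin, Wee1 and Nfil3 lie on the right, and Npas2 and Bhlhe40 farthest to the left among the called genes.

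Several other measures moved with the groups. Egfr, whose protein defined the sort, read 12.77 to 13.05 on activated arrays and 10.64 to 10.92 on quiescent arrays, while Gfap read 5.91 to 7.90 on activated arrays and 10.04 to 11.32 on quiescent arrays. Prom1, which encodes CD133, differed by -1.22 ± 0.32 (adjusted p = 0.0133), although both sorts carried CD133. Cd24a, which encodes CD24, read 13.29 to 13.52 on activated arrays and 7.99 to 10.48 on quiescent arrays (adjusted p = 0.000223). Both sorts are described as lacking CD24, and the reason for this difference was not tested. The stem cell factor Sox2 was bright in both, at 12.04 to 12.22 on activated and 12.39 to 12.58 on quiescent arrays. Of 8 neural stem cell and astrocyte markers 5 were lower and 1 higher in activated cells, and of 5 neuroblast and neuron markers 2 were higher. Mature oligodendrocyte markers were lower in activated cells in 7 of 7 tested cases, with a log2 of the summed signal of 11.1 to 12.4 on activated arrays and 14.0 to 15.9 on quiescent arrays. Endothelial markers were lower in 3 of 4 cases (7.17 to 7.84 on activated, 9.94 to 11.7 on quiescent arrays) and pericyte markers in 3 of 3 (7.31 to 9.05 on activated, 12.1 to 12.99 on quiescent arrays). Of the 4 tested ependymal markers 2 were lower and 1 higher. The higher one, Dnah11, read 10.55 to 11.28 on activated and 6.26 to 7.36 on quiescent arrays. The lower ones were Rarres2 (12.4-fold, adjusted p = 6.53e-05) and Ccdc153 (at least 7.63-fold, adjusted p = 0.00638). The log2 of the summed signal of all 8 on the list was 10.98 to 11.5 on activated and 11.7 to 12.6 on quiescent arrays. Most of that sum on activated arrays came from Dnah11. With no brightness filter, Foxj1 (by at least 5.03-fold, adjusted p = 0.0395) and Dynlrb2 (by at least 5.13-fold, adjusted p = 0.0378) also passed as lower. Tmem212 (adjusted p = 0.0765) and Hydin (adjusted p = 0.722) did not pass there. Of 6 microglial markers 1, Csf1r, was bright enough to be tested and did not pass (adjusted p = 0.132), and the log2 of their summed signal was 6.51 to 7.16 on activated and 8.50 to 8.93 on quiescent arrays. In the fit with no brightness filter both Cx3cr1 (by at least 3.09-fold, adjusted p = 0.0345) and P2ry12 (by at least 5.71-fold, adjusted p = 0.0209) passed as lower in activated cells, while C1qa, Aif1 and Tmem119 were at or below background on every array. The pericyte marker Abcc9 was listed at 0 on activated array 3. Array background was 4.60 ± 0.07 (SD) on activated and 5.67 ± 0.37 on quiescent arrays, and hybridisation controls averaged 13.5 ± 0.04 on activated and 14.2 ± 0.53 on quiescent arrays (exact permutation p = 0.1 for each, n = 3 per group). The excess of the 3′ over the 5′ Gapdh control probe set, a sign of RNA integrity and amplification, was 1.37 ± 0.17 on activated and 2.05 ± 0.52 on quiescent arrays (SD, exact permutation p = 0.1). The same excess for the actin control probe sets did not separate the groups. It was 0.07 ± 0.16 on activated and -0.05 ± 0.16 on quiescent arrays (SD, exact permutation p = 0.4). The part of these measures in the differences of the clock genes was not tested. Scaling on the hybridisation controls put the median difference of all genes at 0.66, against 0.01 as deposited. Per3, Cry2, Nr1d1, Nr1d2 and Dbp passed as lower with it too, with differences of -2.38 to -1.25.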

How the data were processed

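Per the labels' protocols, total RNA of 3 activated and 3 quiescent samples went through NuGEN Pico amplification and biotin labelling. MAS5 is the tool named in the submitters' processing notes, and the authors deposited log2 signals. From the values, the 2% trimmed mean of linear signals was close to 500.0 on every array, so a difference in total RNA per cell is removed. The 64 control probe sets were left out. The brightest single-gene probe set stood for each of 18193 genes, and the 11575 genes with a mean log2 signal of at least 6.02, which 40% of probe sets do not reach, were fitted with limma 3.58.1 under R 4.3.3 (lmFit, eBayes with trend) with Benjamini-Hochberg adjustment. Symbols came from the platform annotation through Entrez identifiers, and promoters from RefSeq GRCm38.p6. Background was the 95th percentile of 27 bacterial control probe sets. A fold is given as a bound if any array of the dimmer group did not exceed background.

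All 10 members, the further genes and the sort genes were named by rule, as were the 3 genes most like the member with the largest call. The members and lists were chosen with earlier results of these data known. Symbols singled out from marker lists were picked after their values were seen. On simulated data over 11575 genes, 46.5% of changes of 2 and 81.8% of changes of 4 on the log2 scale were recovered. Few genes were changed in that simulation, which gave 135 calls against 4044 in the real fit. The cutoff on p was therefore stricter in it, and these shares are not the recovery of the real fit. Alternatives were filters, pseudocounts, scalings, probe set rules, variance models, a block and each array left out.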

Additional observations from a re-analysis of the deposited data

How the results depend on the processing

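Calls were recomputed under 20 alternatives. The count of the 10 clock genes that were lower stayed between 5 and 7 and the count higher at 0, and Per3, Cry2, Nr1d1, Nr1d2 and Dbp were called lower in each alternative. Scaling to the hybridisation controls gave 3058 higher and 944 lower genes in all and 8 further clock genes higher and 3 lower. Median centring gave 3527 higher and 1191 lower genes and 9 further clock genes higher and 5 lower. The share of calls that were higher was 76.4% and 74.8% under these, against 49.6%. Leaving out 1 array at a time gave 1315 to 2440 higher and 1540 to 2176 lower genes, the fewest higher without activated array 2. It gave 5 to 6 clock genes lower, and 3 to 5 further clock genes higher (3 without activated array 3) and 7 to 8 lower. The cause was not tested. With the replicate number as a block, 6 clock genes and 7 further clock genes were lower, and Ciart lost its call (adjusted p = 0.0556). Same-numbered arrays did not deviate together (correlations of 0.06, -0.02 and 0.03), so the number was not taken as a pairing. The simulation held no change below 2 on the log2 scale, so how often differences of the size of Per2 and Cry1 would be called was not tested.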
